A study of Mus musculus with 6 samples.

Results

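The 50 genes described here encode the proteins that choose, license and fire DNA replication origins and that run the replication fork. They were taken by gene symbol from the deposited table of 25899 symbols, by a rule that used no measured value. Earlier results of these data were known when the list was chosen. All 50 were found and passed the low-count filter. Transcripts were counted by RNA sequencing in 6 mouse cell lines that carry BCR-ABL, the fusion kinase of the Philadelphia chromosome. Lines WT1, WT2 and WT3 are wild type for Cdk6 and had been electroporated with a control Cas9 plasmid. Lines KO1, KO2 and KO3 are labelled Cdk6 knock out and had received a Cas9 plasmid with guides against CDK6, a kinase that acts with D-type cyclins in the G1 phase. All 6 therefore share BCR-ABL, Cas9 exposure, sorting for GFP and outgrowth from single cells. The plasmid with guides is named with hCDK6del in the labels, and loss of the protein was checked by Western blot, per the labels. Whether the lines of a group are separate clones is not stated for each line, so the p-values measure the spread between these 6 lines. The comparison asks how replication transcripts differ between lines labelled KO and WT.

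Replication is prepared in G1, when the origin recognition complex ORC, with CDC6 and CDT1, loads the ring of MCM2 to MCM7 onto DNA. The kinase CDC7 with DBF4 then helps CDC45 and the GINS complex to join MCM as the working helicase. Primase and polymerases alpha, delta and epsilon copy the strands, RFC loads the sliding clamp PCNA, RPA coats single-stranded DNA and CAF-1 rebuilds chromatin. CDK4 and CDK6 are known to release E2F factors from the RB protein, and many of these genes are known E2F targets.

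Library totals ran from 17859519 to 24108563 counts, and every member lay far above the level of 3 counts, at 29.2 to 881 CPM in the WT mean. CPM, the usual count rate per library, was taken here over library totals scaled by TMM, the scaling that edgeR uses. Where values of 3 lines are listed, their order is WT1, WT2, WT3 and KO1, KO2, KO3. Library KO2 stood apart from the other 5, at 113 on a first principal component that held 68.0% of the variance. WT2 came next at 12.8, and the remaining libraries lay between -39.1 and -28.1. Cdk6 itself lay at 39.7, 45.6 and 55.9 CPM in the WT lines, against 41.3, 75.0 and 39.0 CPM in the KO lines. A gene-level count cannot reveal a small deletion, so the transcript does not check the genotype, and KO and WT stand for the labels throughout. The 12 early B cell markers were present in all libraries and summed to 4133 to 5151 CPM. Single markers differed between lines to unlike degrees. Pax5 ran from 168 to 193 CPM, but Dntt from 1.14 CPM in KO3 to 25.0 CPM in KO2. Rag1 ran from 64.1 CPM in WT2 to 292 CPM in KO3. Igll1 was at 651 CPM in KO2 and at 1111 to 1236 CPM in the other libraries. Of 9 myeloid markers 5 were at 0 in every library, and the list summed to 28.6 to 44.2 CPM in WT and 16.5 to 42.5 CPM in the KO lines. Of that list Lyz2, the lysozyme of macrophages, lay lower in every KO line, at 38.9, 27.2 and 37.1 CPM in WT against 12.2, 15.8 and 14.7 CPM. Itgam, an integrin of myeloid cells, was at 28.9 CPM in KO1 and at most 4.76 CPM in the other 5 libraries. Of 6 T cell markers with a row Cd4, Cd8a and Cd3e were at 0 in every library, and the list summed to 46.7 to 81.0 CPM in 5 libraries and to 0.461 CPM in KO2, nearly all of it Lck. The erythroid and stromal lists summed to at most 0.819 CPM. For 15 mitosis genes the median log2 ratio to WT was -0.10 in KO1, 0.21 in KO2 and -0.06 in KO3. The part of these differences in the results was not tested, and in bulk RNA fewer cells in a phase and less RNA per cell cannot be told apart.

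The replication genes lay lower in the KO lines as a set, by a small amount. Medians by complex ran from -0.43 for the licensing factors to 0.07 for Mcm8 and Mcm10 on the log2 scale, and differences between complexes were not tested. Without KO2 the median of the licensing factors was -0.28 and that of MCM2-7 lay lower, at -0.34. The log2 fold change of KO against WT was negative in 37 of 50 members, where 47.2% of the 10896 tested genes were negative. Its median over the members was -0.10, against 0.02 over all tested genes. In 18 members every KO library lay below every WT library, which was so for 11.0% of tested genes, and in 0 members every KO library lay above, against 8.51% of tested genes. Among the 6406 genes within the expression range of the members the share with all KO libraries lower was 14.3%. Of these genes 51.95% were negative, with a median log2 fold change of -0.01.

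No member passed the test. By edgeR's quasi-likelihood test with Benjamini-Hochberg adjustment 0 of the 50 were called, as were 0% of all tested genes, and the members' adjusted p ran from 0.479 to 0.998. At an unadjusted edgeR p under 0.05 there were 14 members lower and 0 higher in KO, where 5.1% of tested genes were lower at that level. limma-voom called 0 members. DESeq2 called 8 members, all lower in KO (Cdt1, Mcm2, Gins1, Gins2, Pcna, Lig1, Rfc3 and Tipin), where it called 1.24% of the genes with an adjusted p lower. Without KO2, chosen after seeing the data, DESeq2 called all of these but Tipin, and it called 3.68% of genes lower. Without WT2 and KO2 it called of these only Cdt1, Mcm2, Gins1 and Pcna, and 1.72% of genes lower. The unadjusted 95% interval comes from the same edgeR test, so it restates the unadjusted p and is no further result. It lay wholly below 0 in 14 members and wholly above 0 in 0.

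Line by line, the members had a median log2 ratio to WT of -0.12 in KO1, -0.08 in KO2 and -0.19 in KO3, and between -0.03 and 0.02 in the WT lines. KO3 was the lowest of the KO lines in 27 members and KO2 the highest in 27. KO1 lay below every WT library in 35 members, KO2 in 26 and KO3 in 34. The same shares were not taken over all tested genes, so these counts have no background beside them. Without KO2 the groups were apart in 28 members, with KO lower, where 21.9% of tested genes were, and without WT2 and KO2 in 31, where 27.6% were. The 10 members added by leaving out KO2 were Orc6, Cdc6, Pold1, Pold2, Pole2, Rfc2, Fen1, Rpa1, Rpa3 and Timeless.

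**Figure D1:**
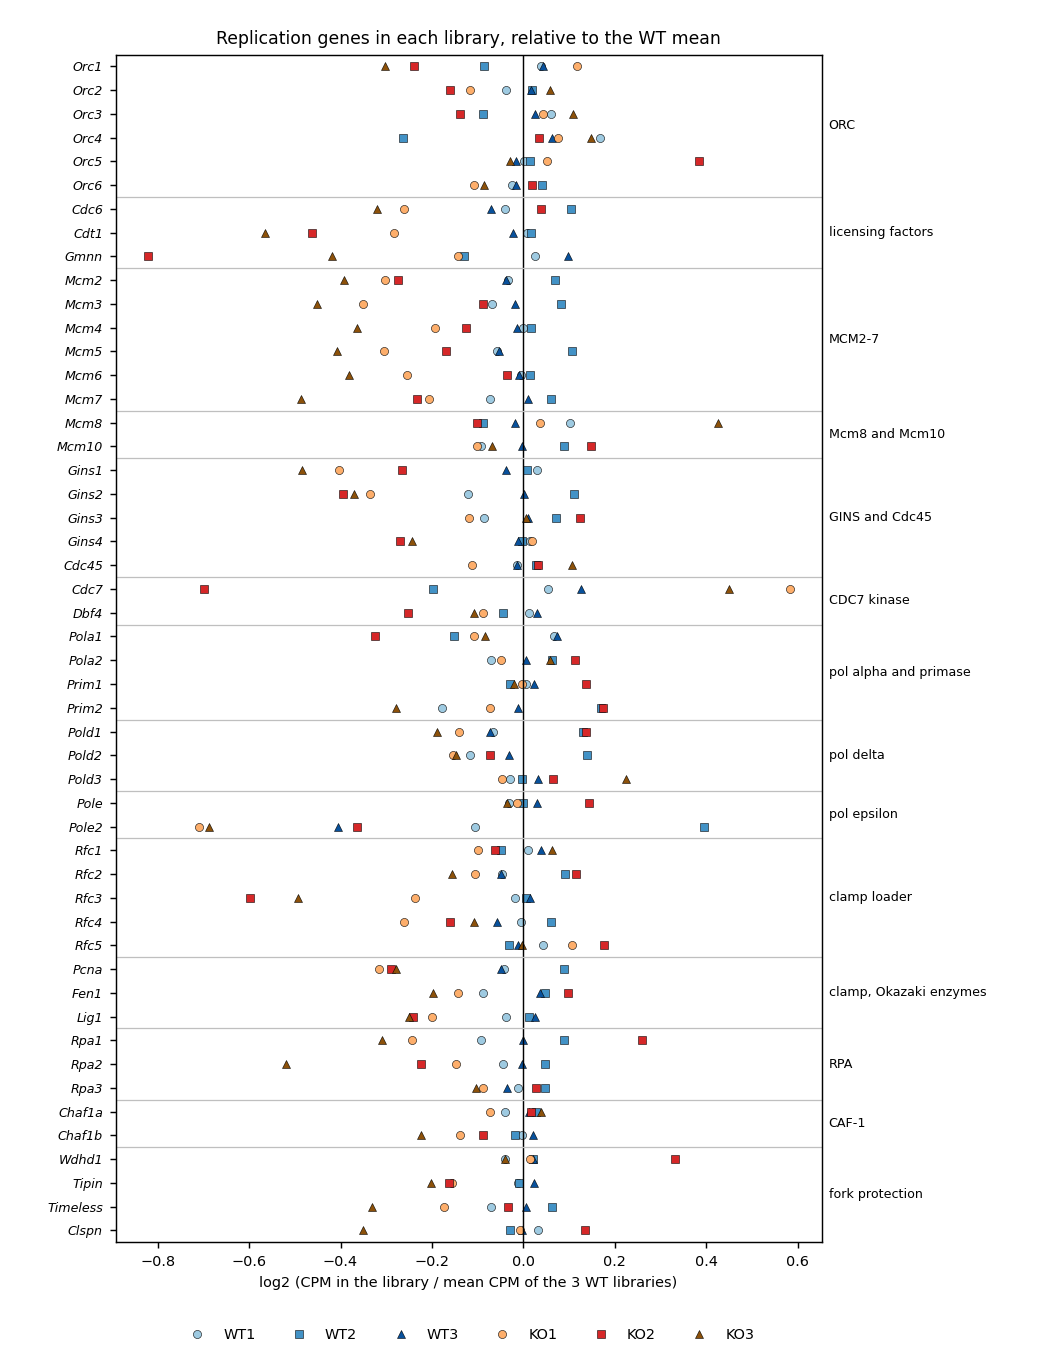
Each row is a replication gene and each point a library, placed at log2 of its CPM over the mean CPM of the 3 WT libraries, with thin lines between complexes. All 6 MCM2-7 genes have their KO points left of their WT points, while the ORC genes have KO and WT points mixed.

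Because the genes are known for E2F control, RefSeq promoters of GRCm38.p6 (250 bases before to 50 after the start) were searched for the E2F words TTTCCCGC, TTTCGCGC, TTTGCCGC and TTTGGCGC on either strand, where overlapping matches count separately. Of the members 41 had a promoter in the table, and 17 of these (41.5%) held a word, as did 34.0% of their promoters. The share was 5.05% among the 7775 tested genes with a promoter, and 2.26% of all 32851 promoters held a word. Of the 17 members with a word 7 had all KO libraries lower, and the median log2 fold change of the 17 was -0.17. Of the 24 without a word 6 had all KO libraries lower, and the median of the 24 was -0.05. All KO libraries were lower in 11.0% of tested genes and in 14.3% of those within the members' expression range. The difference between members with and without a word was not tested. CCAAT, the word bound by NF-Y, was in 52.0% of members' promoters and 37.4% of all promoters. A word is a match of letters and no measured binding site.

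The promoters below belong to the 3 members with the smallest edgeR p that hold a word, Cdt1, Lig1 and Rfc3, and to the member with the largest p that holds one, Gins3. E2F words are in capitals, each sequence is written in the direction of the gene, and positions count from 1 at the first transcribed base. In Cdt1 the word begins at position 33 and in Lig1, which has 3 promoters in the table, at 27. Rfc3 holds a pair of words, beginning at -10 and 1, and in Gins3 the word begins at -41. The first 3 genes lay lower in every KO library and Gins3 did not, so these letters were present on either side of that divide.
Cdt1, chr8:122567765-122568064, plus strand: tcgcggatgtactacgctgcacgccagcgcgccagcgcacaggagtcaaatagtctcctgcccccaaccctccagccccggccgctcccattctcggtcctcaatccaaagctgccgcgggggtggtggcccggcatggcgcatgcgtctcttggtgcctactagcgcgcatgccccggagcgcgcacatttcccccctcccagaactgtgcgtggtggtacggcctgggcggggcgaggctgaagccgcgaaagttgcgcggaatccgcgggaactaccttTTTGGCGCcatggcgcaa
Lig1, chr7:13278576-13278875, plus strand: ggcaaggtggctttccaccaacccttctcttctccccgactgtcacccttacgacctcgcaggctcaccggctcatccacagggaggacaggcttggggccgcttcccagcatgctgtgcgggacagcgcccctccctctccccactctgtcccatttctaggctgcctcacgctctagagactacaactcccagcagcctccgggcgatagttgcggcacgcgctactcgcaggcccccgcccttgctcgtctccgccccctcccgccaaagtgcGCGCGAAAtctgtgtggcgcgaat
Rfc3, chr5:151651159-151651458, minus strand: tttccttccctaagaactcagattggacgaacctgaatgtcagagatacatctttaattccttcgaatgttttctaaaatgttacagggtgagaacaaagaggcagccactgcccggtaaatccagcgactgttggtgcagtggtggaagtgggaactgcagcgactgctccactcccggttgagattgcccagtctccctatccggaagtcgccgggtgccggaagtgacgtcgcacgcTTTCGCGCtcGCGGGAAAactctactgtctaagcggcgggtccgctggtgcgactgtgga
Gins3, chr8:95633309-95633608, plus strand: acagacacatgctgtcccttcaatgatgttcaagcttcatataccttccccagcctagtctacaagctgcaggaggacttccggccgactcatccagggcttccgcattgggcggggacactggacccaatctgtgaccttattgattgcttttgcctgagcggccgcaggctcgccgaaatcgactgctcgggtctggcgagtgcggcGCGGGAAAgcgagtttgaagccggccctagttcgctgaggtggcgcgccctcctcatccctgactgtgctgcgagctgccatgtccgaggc

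The subunits of ORC, which marks origins, had overlapping groups and fold changes of either sign. Their median log2 fold change was -0.02, with 3 of 6 negative and 0 of 6 apart between the groups. Orc3 lay at 112.0, 101.1 and 109.4 CPM in the WT lines, against 110.8, 97.7 and 115.8 CPM in the KO lines. Its groups overlapped fully, and the 95% interval of its log2 fold change was -0.21 to 0.22. Orc5 lay at 35.9, 36.3 and 35.5 CPM in the WT lines, against 37.2, 46.8 and 35.2 CPM in the KO lines, with KO1 just above the WT lines and KO2 further up (log2 fold change 0.15 ± 0.13 SE, edgeR adjusted p = 0.741, and 0.02 without KO2). Orc1, the subunit known to rise and fall with the cell cycle, was at 62.5 to 68.3 CPM in the WT lines, against 71.9, 56.2 and 53.8 CPM in the KO lines. The other 3, Orc2, Orc4 and Orc6, had log2 fold changes of -0.07, 0.09 and -0.06.

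Of the licensing factors, the loader of MCM and its inhibitor both lay lower. Cdt1, which brings MCM to origins (chromosome 8, 122568015 to 122573554), lay at 224, 225 and 219 CPM in the WT lines, against 183, 161.5 and 150.4 CPM in the KO lines. The WT lines lay close together and every KO line below them. This gave a log2 fold change of -0.43 ± 0.09 SE (95% interval -0.64 to -0.22, edgeR adjusted p = 0.479, DESeq2 adjusted p = 0.00356). Gmnn encodes geminin, which binds and blocks CDT1 after origins have fired. It lay at 116.7, 104.9 and 122.7 CPM in the WT lines, against 103.9, 64.9 and 85.9 CPM in the KO lines, so KO1 nearly reached WT2. Its log2 fold change was -0.43 ± 0.18 SE (edgeR adjusted p = 0.532) and -0.27 without KO2. Gmnn lies on chromosome 13 at 24751845 to 24761923, where the 13 expressed genes within 5 Mb had a median log2 ratio of -0.80 in KO2 against WT1 and WT3. Gmnn itself was at -0.88 on that scale, and the part of the region in its KO2 value was not tested. In each of the other 49 members the neighbours' median was at most 0.23 in size. Cdc6, the ATPase that loads MCM with CDT1, lay at 100.6, 111 and 98.5 CPM in the WT lines, against 86.2, 106.2 and 82.8 CPM in the KO lines. KO1 and KO3 were below WT and KO2 among it (log2 fold change -0.17, -0.28 without KO2 and -0.10 without KO3).

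The MCM2-7 genes, which encode the ring that becomes the helicase motor, lay lower in all 3 KO lines as a whole. All 6 had every KO library below every WT library, which was so for 11.0% of tested genes. Their median log2 fold change was -0.29, with single values from -0.32 to -0.22, and edgeR called 0 of them. Summed, the 6 transcripts took 4267, 4570 and 4320 CPM in the WT lines and 3628, 3965 and 3297 CPM in the KO lines. Mcm2 (chromosome 6, 88883474 to 88898780) lay at 732, 787 and 730.0 CPM in the WT lines, against 608, 619.9 and 571 CPM in the KO lines. Its groups did not overlap, and it had a log2 fold change of -0.32 ± 0.06 SE (95% interval -0.48 to -0.16, edgeR adjusted p = 0.479, DESeq2 adjusted p = 0.000659). Mcm6 lay at 878, 890.1 and 876 CPM in the WT lines, against 739, 859 and 676 CPM in the KO lines. KO2 thus sat just under the WT lines and the other KO lines further down (log2 fold change -0.22 ± 0.10 SE, edgeR adjusted p = 0.547, and -0.14 without KO3). Without KO2 its log2 fold change was -0.31, which DESeq2 called (adjusted p = 8.26e-05) and edgeR did not.

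The remaining MCM2-7 genes had the same layout. Mcm3 was at 756 to 840.0 CPM in the WT lines, against 622, 746 and 579.8 CPM in the KO lines. Mcm4 lay between 597 and 610.0 CPM in WT and between 469 and 553 CPM in the KO lines. Mcm5 was at 759 to 851 CPM in WT and 596 to 703 CPM in the KO lines. Mcm7 was at 539 to 592 CPM in WT and 405 to 492 CPM in the KO lines. In all 6 genes KO3 was the lowest line, and KO2 was the highest of the KO lines except for Mcm7, where KO1 was. Without KO2, DESeq2 called all 6 lower, in a fit where it called 3.68% of the genes with an adjusted p lower. Relative to the WT mean the complex's median log2 ratio was -0.28 in KO1, -0.15 in KO2 and -0.40 in KO3. Mcm8 and Mcm10 carry the MCM name but are not part of the ring: MCM8 acts in recombination repair and MCM10 in helicase activation. Both had overlapping groups. Mcm8 was at 39.6, 34.7 and 36.4 CPM in the WT lines, against 37.8, 34.4 and 49.6 CPM in the KO lines, with KO3 above all others (log2 fold change 0.14, and -0.03 without KO3). Mcm10 was at 195 to 221 CPM in WT and 194 to 230.4 CPM in the KO lines, with an interval of the log2 fold change of -0.23 to 0.23.

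**Figure D2:**
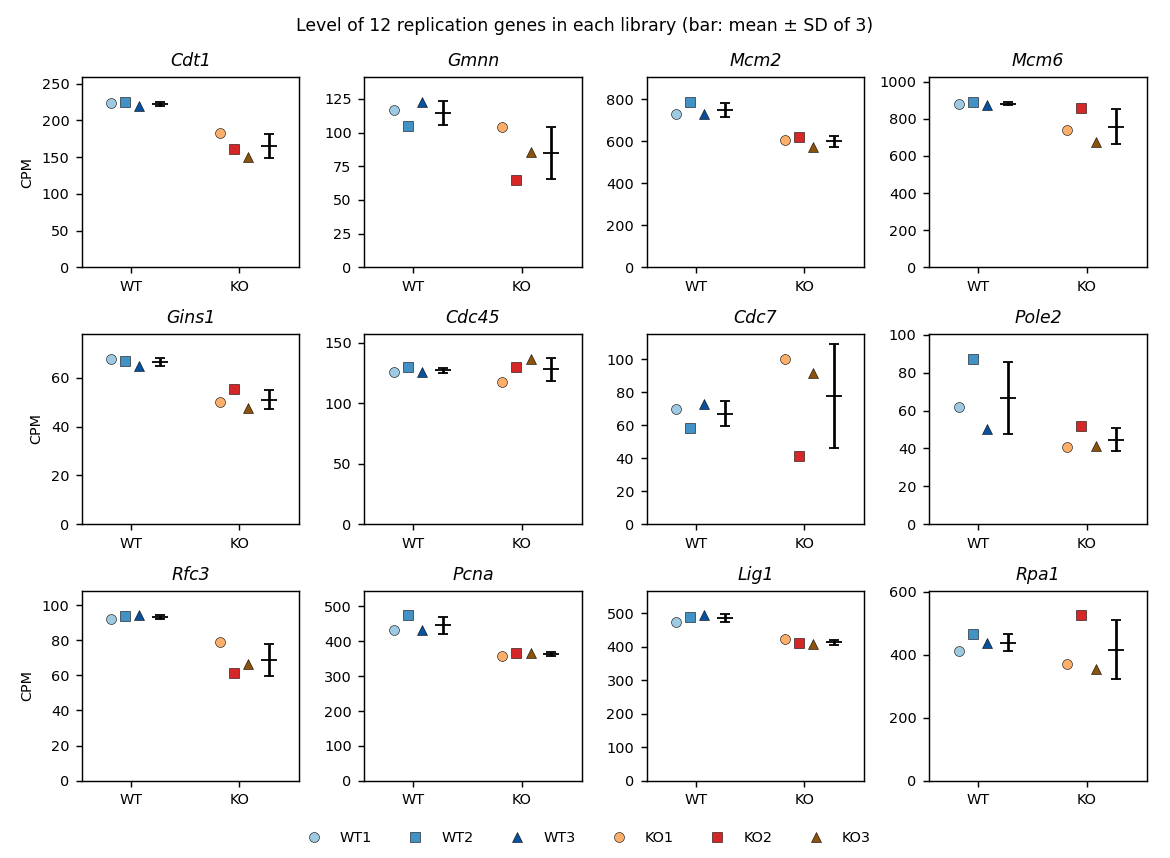
CPM of 12 replication genes in each library, with the mean and SD of each group of 3 beside the points, for genes picked to show each kind of layout after their values were seen. Cdt1, Mcm2, Gins1, Pcna and Lig1 have every KO point below every WT point, Cdc45 has mixed points, and Cdc7 and Rpa1 have KO2 on the far side from KO1 and KO3.

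The helicase partners split by subunit. Gins1 (chromosome 2, 150905400 to 150931280) lay at 67.8, 66.9 and 64.8 CPM in the WT lines, against 50.3, 55.3 and 47.6 CPM in the KO lines. No KO value reached a WT value (log2 fold change -0.38 ± 0.08 SE, edgeR adjusted p = 0.479, DESeq2 adjusted p = 0.0194). Gins2 was at 82.5, 96.9 and 89.8 CPM in the WT lines, against 71.1, 68.3 and 69.4 CPM in the KO lines, also apart (-0.37 ± 0.08 SE, edgeR adjusted p = 0.479, DESeq2 adjusted p = 0.0156). Gins3 lay at 27.5, 30.7 and 29.4 CPM in the WT lines, against 26.9, 31.9 and 29.3 CPM in the KO lines. These groups overlapped fully (95% interval of the log2 fold change -0.26 to 0.27). Gins4 was at 55.8 to 56.9 CPM in the WT lines, against 57.0, 46.7 and 47.5 CPM in the KO lines. Cdc45, which joins GINS and MCM in the active helicase, lay at 126 to 129 CPM in the WT lines, against 117.5, 129.7 and 136.6 CPM in the KO lines (interval of the log2 fold change -0.17 to 0.20). A difference between the fold changes of these subunits was not tested.

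Of the kinase that fires origins, the catalytic subunit varied widely between lines and the activating subunit lay slightly lower in KO. Cdc7, its catalytic subunit, lay at 69.6, 58.5 and 73.2 CPM in the WT lines, against 100.4, 41.3 and 91.5 CPM in the KO lines. KO2 was the lowest of the 6 libraries and KO1 and KO3 the highest, so the SE of 0.34 was the largest of all members around a log2 fold change of 0.21 (edgeR adjusted p = 0.861). It ran from -0.01 without KO1 to 0.52 without KO2. Without WT2 and KO2 the log2 fold change was 0.43, called by DESeq2 (adjusted p = 0.0196) and not by edgeR. Dbf4, its activating subunit, lay at 169, 162.5 and 171 CPM in the WT lines, against 157.5, 140.7 and 155.6 CPM in the KO lines, apart by a small step (log2 fold change -0.15 ± 0.07 SE, edgeR adjusted p = 0.553, and -0.09 without KO2).

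The polymerase subunits among the members had overlapping groups throughout. Of these 9 subunits 0 had every KO library below every WT library. Pole4, a small subunit of polymerase epsilon outside the members, did, as given with the further replication genes. Polymerase alpha with primase makes the RNA-DNA primers. Pola1, its large subunit, which lies on the X chromosome, was at 258.5, 222 and 259.5 CPM in the WT lines, against 229, 197 and 233 CPM in the KO lines, and WT2 lay among the KO lines (log2 fold change -0.17 ± 0.10 SE, edgeR adjusted p = 0.624, and -0.09 without KO2). Prim2, the large primase subunit, lay at 89.4, 113.8 and 100.3 CPM in the WT lines, against 96.1, 114.2 and 83.4 CPM in the KO lines, overlapping fully. Pola2 and Prim1 had log2 fold changes of 0.04 each. Of polymerase delta, which is known for the lagging strand, Pold1 was at 326 to 375 CPM in WT and 300.3 to 376 CPM in the KO lines. Pold2 lay at 168, 200.9 and 178.5 CPM in the WT lines, against 164, 173.7 and 164.8 CPM in the KO lines. KO2 lay within the WT range and the other KO lines just under it (log2 fold change -0.12, edgeR adjusted p = 0.661, and -0.05 without WT2). Pold3 had a log2 fold change of 0.09. The medians of polymerase alpha with primase, of polymerase delta, of the CDC7 kinase and of Mcm8 with Mcm10 changed sign among the alternatives.

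Polymerase epsilon, known for the leading strand, had a pair of subunits among the members. Pole, the catalytic subunit, lay at 261 to 273 CPM in the WT lines, against 264, 295 and 261 CPM in the KO lines (interval of the log2 fold change -0.14 to 0.21). Pole2, the second subunit, lay at 61.8, 87.4 and 50.2 CPM in the WT lines, against 40.7, 51.6 and 41.3 CPM in the KO lines. KO2 lay above WT3, and WT2 lay far above the other 5 libraries. Its log2 fold change was -0.58 ± 0.23 SE (edgeR adjusted p = 0.529). That value moved with the libraries kept: it was -0.33 without WT2, above Cdt1 at -0.42 and Rfc3 at -0.43 in the same fit. Without WT2 and KO2 it was -0.45, below Cdt1 at -0.40 and Rfc3 at -0.35. Without KO2 alone it was -0.69.

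In the clamp loader, a ring of RFC1 to RFC5 that opens PCNA, Rfc3 had the lowest fold change. Rfc3 (chromosome 5, 151642756 to 151651242) was at 91.9, 93.5 and 94.1 CPM in the WT lines, against 79.1, 61.6 and 66.2 CPM in the KO lines. The WT lines lay close together, and no KO line reached them (log2 fold change -0.43 ± 0.11 SE, edgeR adjusted p = 0.479, DESeq2 adjusted p = 0.0406). Rfc1, the large subunit, lay at 251, 240.4 and 255.5 CPM in the WT lines, against 232, 238 and 260.0 CPM in the KO lines, mixed between the groups. Rfc4 was at 79.6 to 86.4 CPM in WT and 69.2 to 76.9 CPM in the KO lines, without overlap. Rfc2 and Rfc5 had log2 fold changes of -0.04 and 0.10 with overlapping groups.

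Of the clamp and the enzymes that finish lagging-strand pieces, Pcna and Lig1 lay lower in every KO line. Pcna, the sliding clamp (chromosome 2, 132249162 to 132253314), lay at 433, 474 and 431 CPM in the WT lines, against 358.5, 365 and 368 CPM in the KO lines. The KO lines lay close together, all below WT (log2 fold change -0.29 ± 0.06 SE, edgeR adjusted p = 0.479, DESeq2 adjusted p = 0.00134). Lig1, the ligase that seals the pieces (chromosome 7, 13277283 to 13311433), lay at 472, 489.6 and 493 CPM in the WT lines, against 422, 410.1 and 408 CPM in the KO lines, also apart (-0.23 ± 0.05 SE, edgeR adjusted p = 0.479, DESeq2 adjusted p = 0.000446). Fen1, the flap nuclease, lay at 223, 245.5 and 244 CPM in the WT lines, against 215, 254 and 207 CPM in the KO lines, with KO2 above every WT line. Of its exon bases 84.2% overlap the annotated genes Tmem258 and Gm10143, so its counts may hold reads of a neighbour.

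**Figure D3:**
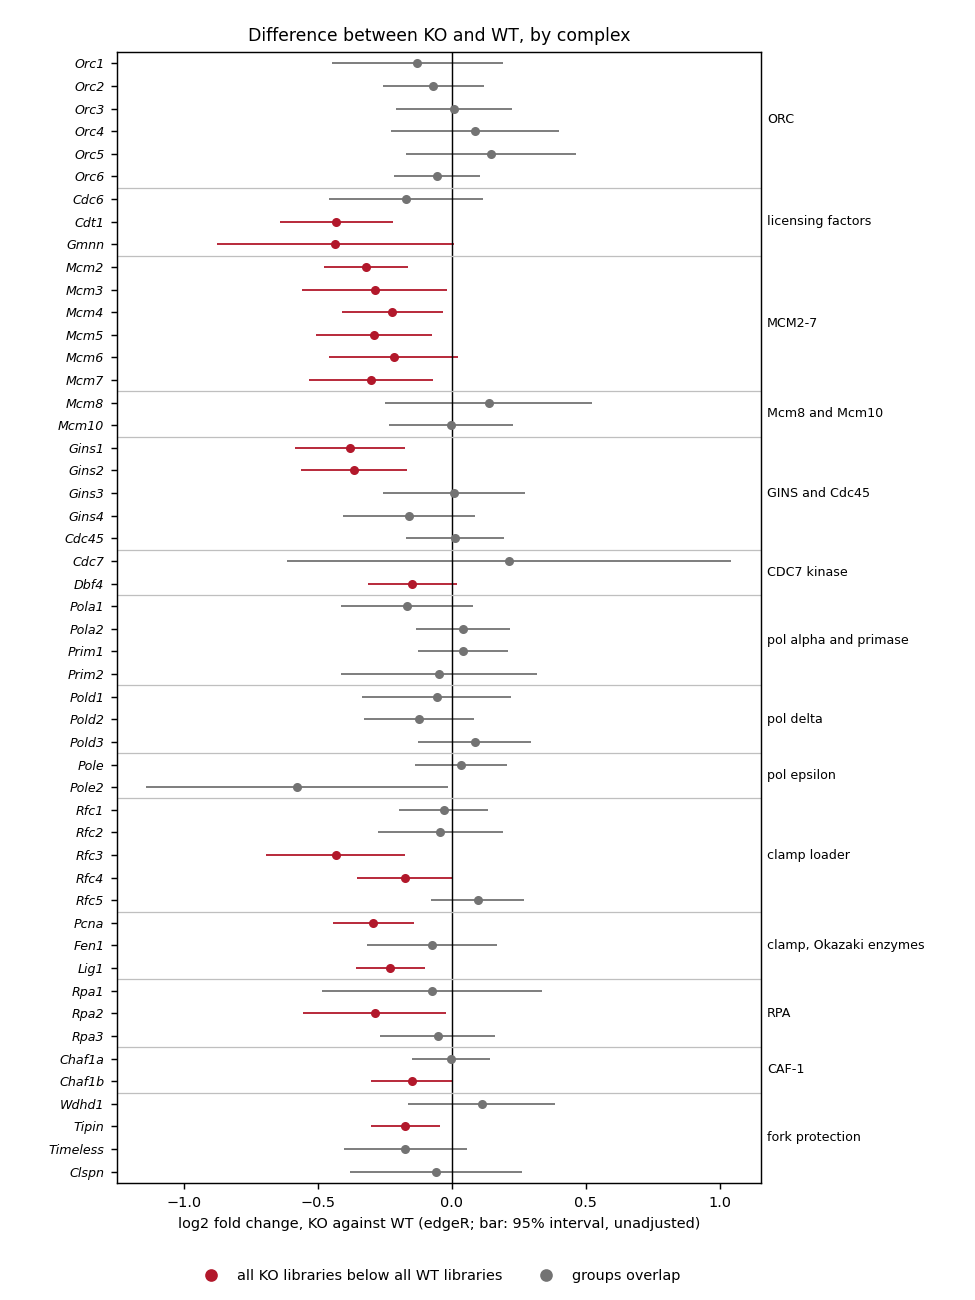
Points give the log2 fold change of KO against WT from edgeR with its unadjusted 95% interval, red where all KO libraries lie below all WT libraries and grey where the groups overlap. Red points include all 6 MCM2-7 genes, and 0 of the ORC and polymerase genes.

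In RPA, the trimer that coats single-stranded DNA, the subunits differed in layout. Rpa1, the large subunit, lay at 411, 466 and 438 CPM in the WT lines, against 370.4, 524 and 354 CPM in the KO lines. KO2 was the highest and KO1 and KO3 the lowest libraries, so the log2 fold change of -0.07 became -0.27 without KO2, which DESeq2 called there (adjusted p = 0.0210) and edgeR did not. Rpa2, the middle subunit, lay at 212, 226 and 218 CPM in the WT lines, against 197.5, 187 and 153 CPM in the KO lines, without overlap (-0.29 ± 0.11 SE, edgeR adjusted p = 0.521, and -0.19 without KO3). Rpa3 lay at 33.0 to 34.9 CPM in WT and 31.4 to 34.5 CPM in the KO lines.

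CAF-1 deposits histones H3 and H4 behind the fork. Its large subunit Chaf1a lay at 210.5, 220.3 and 218 CPM in the WT lines, against 206, 219 and 222 CPM in the KO lines, overlapping fully (interval of the log2 fold change -0.15 to 0.14). Of its exon bases 52.5% overlap Ubxn6. Chaf1b, the middle subunit, lay at 130.3, 129 and 132.5 CPM in the WT lines, against 118.7, 122.9 and 111.8 CPM in the KO lines, apart by a small step (-0.15 ± 0.06 SE, edgeR adjusted p = 0.532).

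Tipin and Timeless form the pair that holds the helicase to the polymerases, and claspin passes the checkpoint signal at stalled forks. Tipin lay at 216.6, 216.9 and 222 CPM in the WT lines, against 196, 195 and 189.8 CPM in the KO lines. Both groups were tight and did not overlap (log2 fold change -0.17 ± 0.05 SE, edgeR adjusted p = 0.482, DESeq2 adjusted p = 0.0473). Timeless had the same log2 fold change, -0.17, with KO2 inside the WT range. Clspn lay at 265, 254 and 259 CPM in the WT lines, against 258, 285 and 203 CPM in the KO lines, with KO3 lowest and KO2 highest of all libraries. Wdhd1, which ties polymerase alpha to the helicase, was at 149 to 156 CPM in the WT lines, against 155, 193 and 149 CPM in the KO lines.

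Compared per kb of the principal transcript, MCM2-7 and Pcna were the most abundant members in both groups. In CPM per kb, MCM2-7 levels in the WT mean ran from 168 for Mcm4 to 303 for Mcm6, a 1.8-fold range, and Pcna was at 294. The ORC range was wider, from 11.9 for Orc4 to 72.8 for Orc6 (6.1-fold), and so was that of GINS with Cdc45, from 11.6 for Gins3 to 61.2 for Gins1 (5.28-fold). Polymerase alpha with primase spanned 1.63-fold. With the union of all annotated exons as length the ranges were 1.96-, 7.32-, 4.07- and 1.67-fold in the same order, and the highest MCM2-7 gene was then Mcm3. The order of members also differed with that length: Mcm2, at 108 CPM per kb of exon union in WT, lay below Tipin at 117 and Lig1 at 114. Per kb of principal transcript the median of MCM2-7 was 228 CPM in WT and 185 in KO, and that of ORC 34.1 and 32.1.

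**Figure D4:**
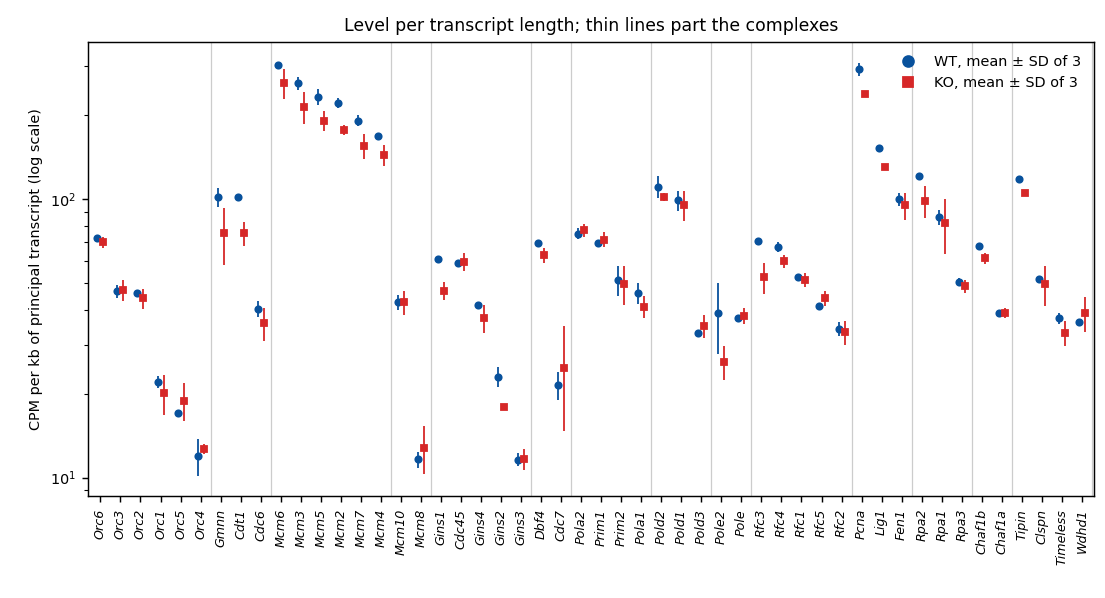
Level per kb of principal transcript, on a log axis, for every replication gene in WT (circles) and KO (squares), with the SD of 3 libraries, sorted by WT level within each complex. MCM2-7 and Pcna lie highest, and Orc4, Mcm8 and Gins3 lowest, near 12.

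By position the members were scattered over 17 chromosomes, so no region held the set. Of the 50 members 13 (26.0%) start within 1000 bases of the start of another tested gene on the opposite strand, as do 15.2% of the 9823 tested genes placed. In these 13 pairs 5 members and 3 partners had every KO library below every WT library, and 1 partner had every KO library above. In 1 pair, Gins1 with Abhd12, both genes had every KO library below. The share of such pairs among all tested genes was not taken. Mcm4 starts 466 bases from Prkdc, the catalytic subunit of DNA-PK. Prkdc lay at 63.3, 53.5 and 64.6 CPM in the WT lines, against 76.8, 59.9 and 79.1 CPM in the KO lines, and its log2 fold change was 0.25 where that of Mcm4 was -0.22. The labels give no strand setting, and 9 members share over 10% of their exon bases with other genes. Gins2 shares 67.3% with Gse1 and Orc2 29.8% with Nif3l1. Of the 50 members 31 share no exon base, among them Cdt1, Mcm2, Gins1, Rfc3, Pcna and Tipin.

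A further 39 replication genes were read the same way. They were listed from general knowledge and by no rule on values, though with earlier results of these data known. Of these 24 were negative, where 47.2% of tested genes were, with a median log2 fold change of -0.03. In 7 (17.95%) every KO library lay below every WT library. That was so for 11.0% of tested genes and 14.3% of those within the expression range of the 50 members. In edgeR 0 of the 39 passed, with 3 lower and 0 higher at an unadjusted p under 0.05, a level at which 5.1% of tested genes were lower. DESeq2 called 1, Rnaseh2b, and limma-voom 0. Rnaseh2b, a subunit of the enzyme that removes ribonucleotides from DNA, lay at 97.4, 100.2 and 99.4 CPM in the WT lines, against 87.7, 78.9 and 79.8 CPM in the KO lines (log2 fold change -0.27 ± 0.07 SE, edgeR adjusted p = 0.479). Nasp, a histone chaperone, lay at 414, 383 and 416 CPM in the WT lines, against 359, 312 and 323 CPM in the KO lines, without overlap. Dtl, the receptor that targets CDT1 for destruction, lay at 315, 270.3 and 293 CPM in the WT lines, against 249, 246 and 189 CPM in the KO lines, again without overlap (-0.36 ± 0.13 SE, edgeR adjusted p = 0.506). Pole4, a small subunit of polymerase epsilon, was at 49.8 to 53.8 CPM in WT and 42.4 to 48.2 CPM in the KO lines.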

How the data were processed

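RNA of 6 BCR-ABL cell lines was sequenced from TruSeq libraries, per the labels' protocols. The authors deposited raw counts per gene symbol, 1 column per library. The submitters' processing notes name the tools Trim Galore, STAR and DESeq2 and the build GRCm38. Their versions, the counting program, the annotation and the strandedness were not given in the sources used here. The table had 25965 rows, of which 66 repeat a symbol.

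Groups came from the titles. Counts were scaled by TMM, filtered by filterByExpr and tested in edgeR 4.0.16 (R 4.3.3) with robust quasi-likelihood F tests over all 6 libraries, two-sided, with Benjamini-Hochberg adjusted p under 0.05 over 10896 genes. SE was taken from the fold change and F. Alternatives used DESeq2 1.42.0, with no adjusted p for 14753 rows, limma 3.58.1, other scalings and filters, a replicate block and left-out libraries. Locations and lengths came from GENCODE vM21, the longest APPRIS principal transcript. Neighbours were genes of at least 5 CPM, with an offset of 0.5 CPM.

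WT and KO share replicate numbers. Same-numbered libraries deviated from their group means with correlations across genes of 0.33, 0.64 and 0.46 for numbers 1, 2 and 3, each above 0.1, so the numbers were taken to pair the libraries in the block fit. For numbers 1 and 3 the libraries of the other number correlated about as much, at 0.41 for WT1 with KO3 and 0.36 for WT3 with KO1, so these values do not single out the same-numbered library.

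The members, complexes and lists were chosen with earlier results of these data known. Named were, in each of the 14 groups of genes, the members with the smallest and largest edgeR p, and the 4 further replication genes with the smallest. Others singled out were chosen after their values were seen. Of the 39 further genes 4 were matched by synonym.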

Additional observations from a re-analysis of the deposited data

How the results depend on the processing

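With edgeR under every planned scaling, filter and dispersion setting, with the replicate block, limma-voom and each library left out, 0 members, 0 of all tested genes and 0 of the 39 further replication genes passed. The block changed no call, and the median of the members was -0.11 with it. That median ran from -0.15 to -0.07 over all alternatives, and 34 to 41 members were negative. DESeq2 called 218 genes, 8 members and 1 further replication gene, and without KO2 684, 14 and 0. Without WT2 and KO2 it called 340, 8 and 1. The settings without KO2 in DESeq2 and without both WT2 and KO2 were chosen after seeing the data. Without KO2 its members were 13 lower and 1 higher, Cdc7. The number of members whose KO libraries all lay under the lowest WT library was 19 to 28 with a library left out. It was 31 without WT2 and KO2. By library totals it was 17 of the 50 members, against 946 of the 10896 tested genes. Fewer libraries make such separation easier. Its share among tested genes was 11.0% with all 6 libraries, 21.9% once KO2 was dropped and 27.6% once WT2 was dropped too. For the other single left-out libraries no such share is given, so their counts have no background beside them. Members with an E2F word were 17.1% with TTTCGCGC alone and 41.5% with the window cut to 150 bases before the start. Among tested genes with a promoter these shares were 0.875% and 3.73%. Of 561 values of 33 single genes under alternatives, 22 became calls, all 22 in DESeq2 fits, and 41 changed sign without a call in either fit. The medians of MCM2-7 (-0.34 to -0.22) and of the clamp with Fen1 and Lig1 (-0.25 to -0.21) stayed negative in all alternatives. With 3 lines a group the median SE of a member was 0.09 on the log2 scale.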
